A study of Homo sapiens with 10 samples.

Results

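The regions of acetylated histone H3 described here are those that the deposited annotation assigns to 9 genes of the transforming growth factor beta (TGF-beta) pathway, namely TGFB1, TGFB2, TGFBR1, TGFBR2, TGFBR3, SMAD3, SMAD7, SKIL and TGFBI. All rows of the annotated table that carry one of these symbols were taken, which gave 147 of 67387 annotated regions. Each region is about 0.5 kb wide, and the 147 regions fall into 59 loci when neighbours within 1 kb are merged. They belong to 8 of the 9 genes, since no annotated region carries the symbol TGFB1. The numbers of regions are 25 for TGFB2, 3 for TGFBR1, 23 for TGFBR2, 4 for TGFBR3, 38 for SMAD3, 16 for SMAD7, 2 for SKIL and 36 for TGFBI. The annotation places 46 of them in the promoter class and the other 101, called distal here, in introns (69), between genes (29) or in exons (3). The promoter class refers to any annotated transcript, and 25 of its 46 regions lie over 3 kb from the first RefSeq start of the gene, most of them at internal starts of SMAD3, TGFBR2 and TGFBI.

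TGF-beta ligands such as the products of TGFB1 and TGFB2 bind a serine/threonine kinase receptor made of the type II subunit (TGFBR2) and the type I subunit (TGFBR1), with betaglycan (TGFBR3) as a co-receptor that presents ligand. The receptor phosphorylates SMAD3, which enters the nucleus with SMAD4 and binds target genes. SMAD7 and SKIL are both induced by the pathway and restrain it, the first at the receptor and the second, as the protein SnoN, on the SMAD complex, and TGFBI encodes a secreted matrix protein that is named for its induction by TGF-beta. In epithelial cancers the pathway is known for growth arrest and for epithelial-mesenchymal transition. H3K27ac, acetylation of lysine 27 of histone H3, marks active promoters and enhancers, so the values below describe chromatin and not transcript or protein.

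The mark was measured by ChIP-seq in the cell line H1975, which derives from a human lung adenocarcinoma and carries mutant EGFR. Control cells spent 21 days in medium without drug and a further 3 days in DMSO. Osimertinib drug-tolerant persisters (osimertinib DTP, or the DTP group) spent 24 days in 500 nM osimertinib, an EGFR tyrosine kinase inhibitor, and the group osimertinib DTP + AZD5153, called the combination here, had 21 days of 500 nM osimertinib and then 3 days of 150 nM of the small molecule AZD5153. Each group has 3 libraries, described in the labels as biological replicates of this single cell line, and 1 input library was pooled. The labels do not say whether osimertinib stayed in the medium with AZD5153.

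Total counts were 6263443 to 10463351 per H3K27ac library and 1870885 for the input. Replicate 3 of the combination stood apart: its Spearman correlation across regions with replicates 1 and 2 was 0.445 and 0.367, against 0.888 between those 2 libraries. Promoter regions held 73.24% of its annotated counts and 66.18% of those of osimertinib DTP replicate 2, against 48.31% to 54.34% in the other 7 libraries. The counts of calls over all 147 regions are therefore also given without combination replicate 3. Of 8 markers of epithelial or lung cells (KRT8, KRT18, KRT19, KRT7, EPCAM, CDH1, NKX2-1 and NAPSA), all 8 had promoter regions, with mean levels of 9.04 to 63.0 CPM (the count scaled to library size, with TMM factors) in DMSO. The median of these 8 levels was 22.3 CPM in DMSO, 31.6 in the DTP group and 28.9 in the combination. NAPSA was lower in both treated groups than in DMSO, and CDH1 was lower in the combination. Of 9 markers of other cell types, 4 had a promoter region (COL1A1, COL1A2, PDGFRB and CDH5), at 1.79 to 13.5 CPM in DMSO, 5.81 to 24.7 in the DTP group and 14.7 to 29.9 in the combination. The median of these 4 levels was 5.19, 19.55 and 18.5 CPM in the same order. DCN, PTPRC, CD3E and PECAM1 were among the markers with none. The part of other cells in the results was not tested.

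As examples of a ligand, an inhibitor and a target gene, 250 bases upstream of the first RefSeq start are printed for TGFB2, SMAD7 and TGFBI (GRCh38.p14, 5′ to 3′ on the gene's strand). They lie at chr1:218345086-218345335 on the plus strand, chr18:48950966-48951215 on the minus strand and chr5:136028738-136028987 on the plus strand. Capitals mark CAGAC, the SMAD box, CATTCC, the TEAD motif, and TATAAA, the TATA box, and none of the marked matches overlap.
TGFB2: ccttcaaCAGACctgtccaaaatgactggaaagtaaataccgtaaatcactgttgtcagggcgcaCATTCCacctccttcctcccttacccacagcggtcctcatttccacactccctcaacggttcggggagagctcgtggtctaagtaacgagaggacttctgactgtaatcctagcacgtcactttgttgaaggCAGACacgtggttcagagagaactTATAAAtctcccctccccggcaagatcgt
SMAD7: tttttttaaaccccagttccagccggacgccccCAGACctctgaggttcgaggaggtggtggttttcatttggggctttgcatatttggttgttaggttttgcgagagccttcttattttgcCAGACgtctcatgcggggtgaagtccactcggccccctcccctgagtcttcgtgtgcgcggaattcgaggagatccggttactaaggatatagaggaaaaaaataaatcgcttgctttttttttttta
TGFBI: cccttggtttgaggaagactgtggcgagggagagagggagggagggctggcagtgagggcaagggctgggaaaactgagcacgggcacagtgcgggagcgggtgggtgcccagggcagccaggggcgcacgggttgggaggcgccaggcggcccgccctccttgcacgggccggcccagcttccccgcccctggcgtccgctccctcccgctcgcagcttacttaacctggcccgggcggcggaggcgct

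The TGFB2 stretch holds 2 SMAD boxes, at −243 and −53 from the start, with CATTCC at −185 and TATAAA at −29, and that of SMAD7 holds 2 SMAD boxes, at −217 and −128. The printed TGFBI stretch holds none of these motifs. The motifs were searched on both strands in windows of 300 bases, from 250 before to 50 after the start. In such windows, SMAD3 and SKIL had 1 SMAD box each, and TGFB1, TGFBR1, TGFBR2, TGFBR3 and TGFBI had none. CAGAC was present in 45.3% of all 35116 RefSeq windows, CATTCC in 14%, TATAAA in 11.5%, the AP-1 motif TGANTCA in 7.71% and the SMAD palindrome GTCTAGAC in 0.202%. Neither of the last 2 motifs was found in any of the 9 windows, which are those of the first start alone. Further RefSeq windows of TGFBR1 (8 in all), SMAD3 (5), SMAD7 (3) and TGFBR2 (2) were not read for these counts.

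The first comparison, osimertinib DTP against DMSO, addresses how H3K27ac at the pathway differs in drug-tolerant persisters. H3K27ac fell at 8 of the 147 regions and rose at 2 (edgeR quasi-likelihood test, Benjamini-Hochberg adjusted p under 0.05 over all 157919 regions tested, the meaning of a call throughout). Of the falls, 7 lay between 20 and 35 kb upstream of TGFBI and 1 inside SMAD3, and both rises in an intron of TGFB2. The called share of the 147 regions was 6.80%, against 14.2% of annotated regions (6.98% higher and 7.22% lower) and 10.7% of all tested regions, so the share of these regions was below the background. The called regions lie in 5 loci, and neighbouring regions of a locus are not independent. In the promoter class 1 of 46 regions was called, 2.17% against 6.68% of annotated promoter regions, and among distal regions 9 of 101, 8.91% against 20.6%. The 147 regions had a median log2 fold change of 0.05, against 0.15 over every region tested, and with DESeq2 these medians were −0.06 and 0.03.

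The calls of this comparison moved with single libraries. No region was called without DMSO replicate 2, DMSO replicate 3 or osimertinib DTP replicate 2, and 3, 1 and 2 were called without DMSO replicate 1, osimertinib DTP replicate 1 and osimertinib DTP replicate 3. In contrast, without combination replicate 3, which enters through the shared estimate of the spread, 37 were called (17 higher and 20 lower, 25.2% against 31.5% of annotated regions). DESeq2 called 8 higher and 14 lower (15.0% against 21.8%). Shares of annotated regions in the fits without the other libraries are not given here, so those counts describe the member regions alone. Fewer cells carrying the mark and less acetylation per cell cannot be told apart in these bulk libraries.

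Between the combination and DMSO, H3K27ac rose at 14 and fell at 12 of the 147 regions. The rises were at TGFB2 (6), SMAD3 (3), TGFBR2 (2), TGFBR3 (2) and SMAD7 (1), and the falls at TGFBI (7), SMAD3 (4) and SMAD7 (1). The called share was 17.7%, against 21.8% of annotated regions (10.7% higher and 11.1% lower) and 18.1% of all tested regions, with edgeR again no more than the background. Among promoter regions it was 10.9% (5 of 46) against 11.6% and among distal regions 20.8% against 30.4%. DESeq2 called 24 higher and 14 lower (25.9% against 28.9%), and with it the promoter share was above the background, at 12 of 46 regions or 26.1% against 17.3%. Without combination replicate 3 the promoter share was 23.9% against 22.7%. The median log2 fold change was 0.20 over the 147 regions and 0.23 over every region tested. Without TMM scaling, which moved the latter to −0.02 and the former to −0.05, 7 regions rose and 11 fell. Without DMSO replicates 1, 2 and 3 in turn 14, 3 and 5 were called, without combination replicate 1 there were 10, and without combination replicate 3 there were 46 (30 higher and 16 lower, 31.3% against 36.3% of annotated regions). Called shares of annotated regions without TMM scaling or without the other single libraries are not given here. Those counts thus describe the 147 regions alone. Both comparisons against DMSO use the same 3 DMSO libraries.

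**Figure D1:**
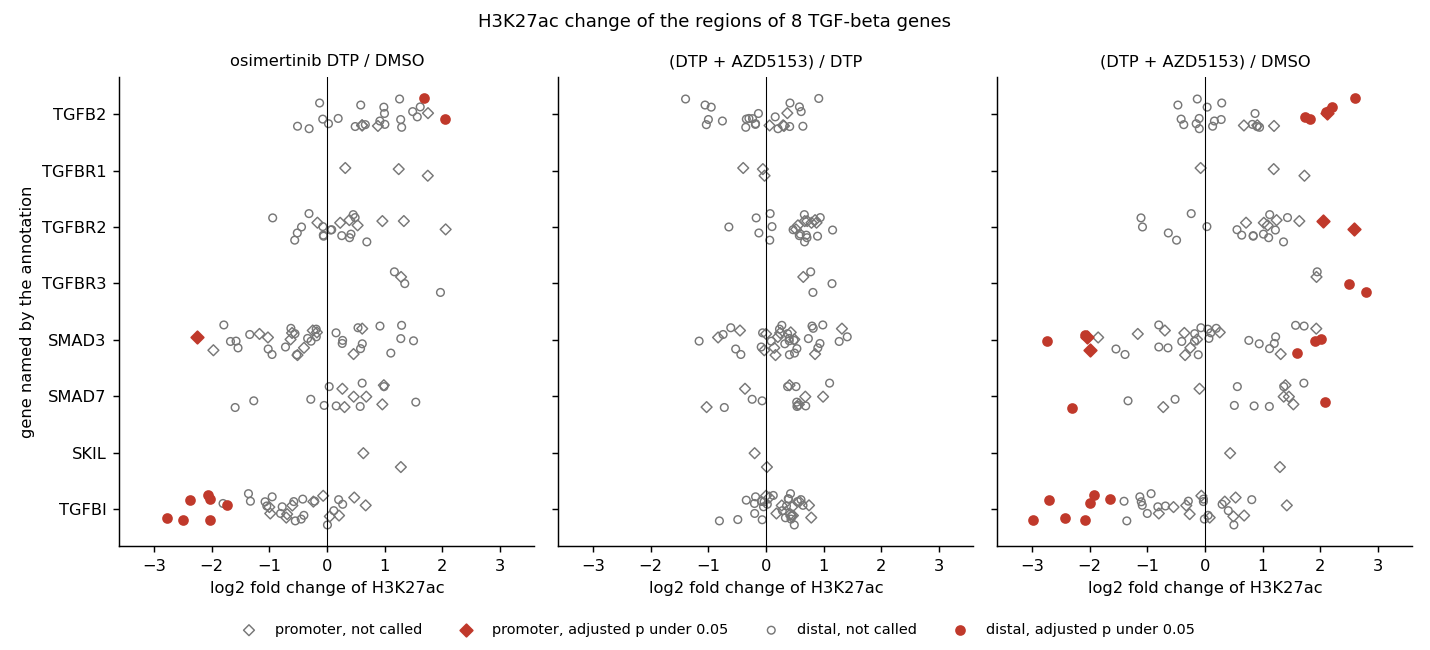
Log2 fold change of H3K27ac (x axis) at each of the 147 regions, by gene (y axis, points spread vertically for legibility), in the 3 comparisons. Diamonds are promoter regions and circles distal regions, and filled red symbols mark an adjusted p under 0.05: 10 in osimertinib DTP against DMSO, 0 in the combination against osimertinib DTP and 26 in the combination against DMSO.

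Of the ligands, TGFB1 has no annotated region. Within its RefSeq bounds 3 counted regions lie in the table of all regions, at chr19:41351317-41351818, chr19:41352920-41353421 and chr19:41353455-41353956. Their mean levels in DMSO were 0.782 ± 0.400, 2.13 ± 0.545 and 2.14 ± 1.17 CPM (SD, n = 3), against a median of 7.87 CPM over all annotated regions. None was called in any of the 3 comparisons, with adjusted p of 0.391 to 0.615 in osimertinib DTP against DMSO.

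TGFB2, the gene of a second ligand, had 25 regions between 1.7 and 80.5 kb downstream of its start, and none at the start itself. The strongest promoter region, chr1:218346771-218347272, at 1.7 kb, measured 38.2, 55.4 and 42.4 CPM in DMSO, 53.7, 93.4 and 60.4 in the DTP group and 68.9, 83.4 and 103 in the combination. All combination libraries were above all DMSO libraries, and osimertinib DTP replicate 1 lay within the DMSO range. The difference was not called (combination against DMSO, log2 fold change 0.91 ± 0.46 (SE), adjusted p = 0.186).

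The rises at TGFB2 lay downstream of that peak. In the intronic region chr1:218351447-218351948, 6.4 kb from the start, levels were 4.72, 4.75 and 4.73 CPM in DMSO, 11.2, 19.2 and 15.5 in the DTP group and 27.1, 28.7 and 30.7 in the combination. The 3 groups did not overlap, with DMSO lowest and the combination highest, and combination replicate 3 was the highest of its group. H3K27ac rose by 1.69 ± 0.51 (log2, SE) in osimertinib DTP (adjusted p = 0.0413, and 0.188 without DMSO replicate 3) and by 2.61 ± 0.53 in the combination (adjusted p = 0.00388). The second of these calls held when any one of the 9 libraries was left out (highest adjusted p = 0.038). The combination against osimertinib DTP differed by 0.92 ± 0.50, which was not called.

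In neighbouring TGFB2 regions the combination libraries were farther apart. At chr1:218349808-218350309, 4.7 kb from the start, levels were 4.99, 5.47 and 4.53 CPM in DMSO, 12.9, 14.8 and 23.0 in the DTP group and 26.4, 31.5 and 7.34 in the combination. All treated libraries were above all DMSO libraries, and combination replicate 3 was the lowest of its group. The rise was called in the combination (2.12 ± 0.60, adjusted p = 0.0213, and 0.111 without DMSO replicate 3) and had an adjusted p of 0.0644 in osimertinib DTP. Over the 7 regions from 1.7 to 7.4 kb the log2 fold change was 0.61 to 2.05 in the DTP group and 0.68 to 2.61 in the combination, with 2 and 4 regions called. Over all 25 TGFB2 regions, every treated library was above every DMSO library in 12 in the DTP group and in 8 in the combination, arrangements that 21.2% and 18.6% of annotated regions showed. A second group of 2 intronic regions near 37 kb was called in the combination, of which chr1:218381643-218382144 measured 5.89, 3.41 and 4.12 CPM in DMSO, 15.1, 10.8 and 11.8 in the DTP group and 18.4, 14.1 and 25.3 in the combination. It rose by 2.10 ± 0.54 in the combination (adjusted p = 0.0134, and 0.0925 without DMSO replicate 2). Between these 2 groups, at 35.0 kb, the strongest intronic region chr1:218380046-218380547 measured 23.8 ± 7.24, 33.4 ± 3.08 and 44.4 ± 27.8 CPM (SD, n = 3) and was not called.

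**Figure D2:**
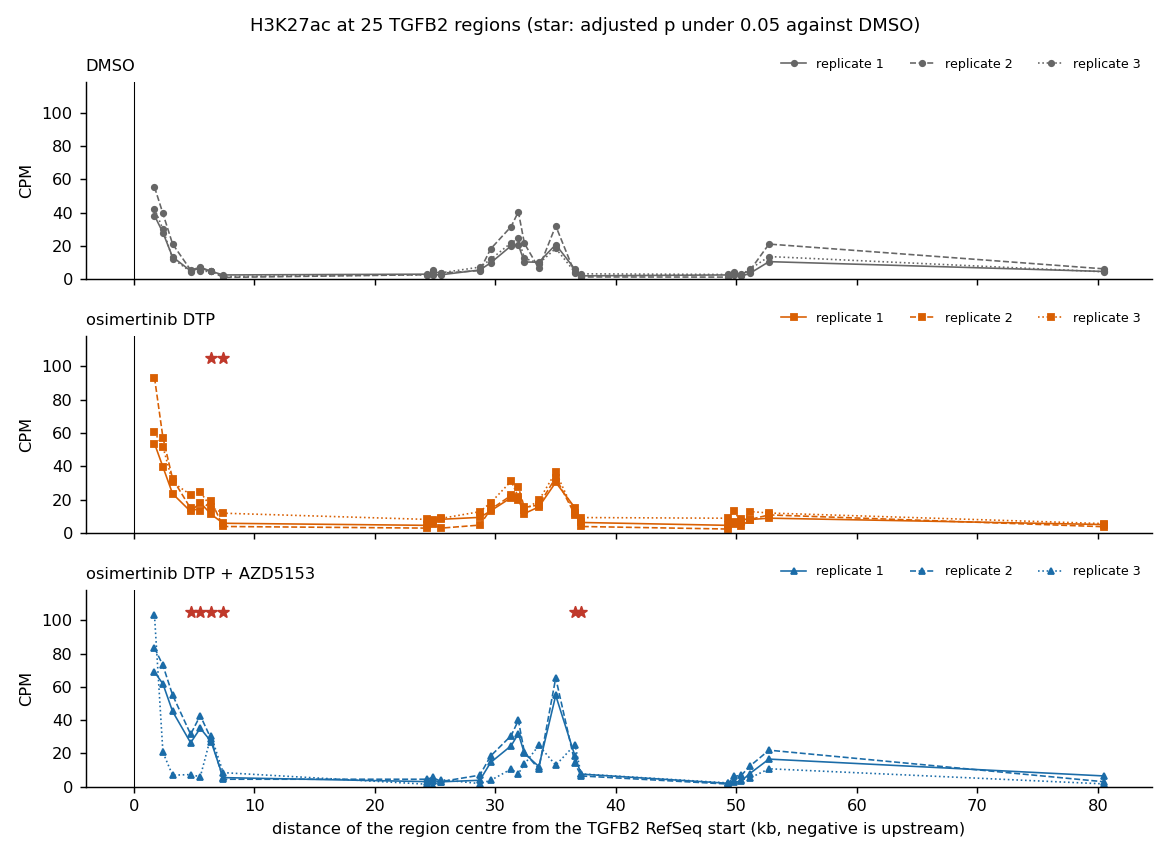
H3K27ac in CPM (y axis) at the 25 TGFB2 regions by distance from the RefSeq start in kb (x axis), with 1 line per replicate and 1 panel per group. Stars mark regions called against DMSO, 2 in the DTP group and 6 in the combination. They sit beside the peak at 1.7 kb and near 37 kb rather than on the tallest points.

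Of the receptors, TGFBR1, the type I kinase, had 3 regions, all of the promoter class. The strongest, chr9:99105509-99106010, at 2.1 kb from the first start, measured 8.07, 8.98 and 9.35 CPM in DMSO, 20.5, 59.4 and 9.16 in the DTP group and 14.5, 16.1 and 57.2 in the combination. The 2 highest libraries were osimertinib DTP replicate 2 and combination replicate 3, those with the largest promoter share. No TGFBR1 region was called, and this one had an adjusted p of 0.113 in the DTP group and 0.0918 in the combination.

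TGFBR2, the type II receptor, was called in 2 promoter-class regions, both in the combination against DMSO and both near an internal start about 8 kb into the gene. At chr3:30613501-30614002 levels were 3.08, 1.96 and 3.12 CPM in DMSO, 4.78, 3.76 and 12.1 in the DTP group and 14.2, 10.8 and 8.89 in the combination. All combination libraries were above all DMSO libraries, and H3K27ac rose by 2.05 ± 0.59 (adjusted p = 0.0232, and 0.126 without DMSO replicate 2). At chr3:30614521-30615022 the combination libraries measured 15.7, 24.9 and 2.13 CPM against 1.54, 3.2 and 2.41 in DMSO, so that replicate 3 lay within the DMSO range. That region rose by 2.58 ± 0.74 (adjusted p = 0.0237), and the call was lost when DMSO replicate 1 was left out (adjusted p = 0.104).

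At the TGFBR2 start, chr3:30606722-30607223 measured 34.1, 40.5 and 33.1 CPM in DMSO, 34.1, 92.4 and 29.4 in the DTP group and 43.1, 47.9 and 138 in the combination. Again osimertinib DTP replicate 2 and combination replicate 3 were highest, and the region was not called (adjusted p = 0.622 and 0.205 against DMSO). Away from the start the order turned, and combination replicate 3 was the lowest of its group in 21 of the 23 TGFBR2 regions. The strongest intronic region, chr3:30658673-30659174, measured 50.9, 64.9 and 7.54 CPM in the combination against 42.7, 60.1 and 42.8 in DMSO, and it was not called. Without combination replicate 3, 13 TGFBR2 regions were called higher in the combination than in DMSO, against 2 with it. In that fit 18.9% of all annotated regions were called higher, against 10.7% with the library.

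TGFBR3, the co-receptor, had 4 regions at low levels. In an intron 148.7 kb from the start, chr1:91737214-91737715 measured 3.99, 1.76 and 0.704 CPM in DMSO, 9.08, 10.7 and 5.74 in the DTP group and 20.1, 20.1 and 4.45 in the combination. All treated libraries were above all DMSO libraries, and H3K27ac rose by 2.79 ± 0.71 in the combination (adjusted p = 0.0135, and 0.0869 without DMSO replicate 3). The difference in osimertinib DTP was 1.97 ± 0.70 (adjusted p = 0.0774, and 0.0341 with the replicate number as a block). Its neighbour chr1:91736606-91737107 also rose in the combination, by 2.50 ± 0.82 (adjusted p = 0.0423), with groups that overlapped because combination replicate 3, at 1.35 CPM, lay below DMSO replicate 1, at 4.62. Leaving out DMSO replicate 3 ended that call (adjusted p = 0.184). At the TGFBR3 start the region chr1:91885708-91886209 measured 2.09 ± 0.850, 5.19 ± 5.28 and 8.13 ± 5.17 CPM (SD, n = 3) and was not called.

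SMAD3, the signal transducer, had the most regions, 38 over 114 kb, and they did not move one way. In a stretch of 4 promoter-class regions 9 to 11 kb into the gene, 1 fell in osimertinib DTP and 2 in the combination, and the 4 had log2 fold changes of −2.26 to −1.02 in osimertinib DTP and −2.05 to −1.16 in the combination. Its region chr15:67076368-67076869 measured 8.25, 15.5 and 11.8 CPM in DMSO, 3.73, 1.81 and 1.81 in the DTP group and 4.31, 2.91 and 1.16 in the combination. No treated library reached the lowest DMSO library. H3K27ac fell by 2.26 ± 0.61 in osimertinib DTP (log2, adjusted p = 0.0253) and by 2.05 ± 0.60 in the combination (adjusted p = 0.0259), and both calls were lost without DMSO replicate 2 (adjusted p = 0.142 and 0.117).

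A second SMAD3 stretch, in an intron 36 to 38 kb from the start, was called lower in the combination in 2 of its 3 regions. At chr15:67101827-67102328 the counts were 35, 56 and 61 in DMSO, 13, 9 and 25 in the DTP group and 7, 12 and 0 in the combination, and H3K27ac fell by 2.73 ± 0.77 (adjusted p = 0.0213, and 0.0865 without DMSO replicate 3). Toward the end of the gene the direction was the opposite: of 9 regions 109 to 114 kb from the start, 3 rose in the combination. The region chr15:67178196-67178697 measured 8.98, 5.06 and 3.62 CPM in DMSO, 18.3, 17.1 and 14.8 in the DTP group and 25.6, 27.3 and 13.3 in the combination. All treated libraries were above all DMSO libraries, and the rise in the combination was 1.91 ± 0.56 (adjusted p = 0.0249, and 0.16 without DMSO replicate 3).

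The strongest SMAD3 regions were not among those called. The intronic region chr15:67105629-67106130 measured 47.8 ± 8.12 CPM in DMSO, 32.6 ± 4.31 in the DTP group and 42.2 ± 6.83 in the combination (SD, n = 3). The internal promoter region chr15:67125817-67126318 measured 35.4 ± 8.85, 26.8 ± 1.45 and 29.6 ± 12.7 CPM. Adjusted p was above the threshold for both (0.501 and 0.69 in osimertinib DTP, 0.834 and 0.779 in the combination).

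SMAD7, the inhibitory SMAD, was called in 2 distal regions with opposite directions, both in the combination against DMSO. Downstream of the gene, 77.8 kb from the start, chr18:48872928-48873429 measured 13, 17.4 and 12.6 CPM in DMSO, 3.73, 6.12 and 4.43 in the DTP group and 2.60, 3.84 and 2.13 in the combination. Every treated library was below every DMSO library. H3K27ac fell by 2.31 ± 0.55 in the combination (adjusted p = 0.0088, and 0.0565 without DMSO replicate 2). In osimertinib DTP the difference was −1.59 ± 0.53 (adjusted p = 0.06, and 0.0467 with the replicate number as a block).

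Upstream of SMAD7, 5.4 kb before the start, chr18:48956078-48956579 was low, at 1.19 ± 0.478 CPM in DMSO, 3.50 ± 0.476 in the DTP group and 5.05 ± 1.64 in the combination (SD, n = 3). It rose by 2.08 ± 0.58 in the combination (adjusted p = 0.0204, and 0.13 without DMSO replicate 3). The region over the SMAD7 start whose upstream sequence is printed above, chr18:48950916-48951417, measured 12.5, 7.64 and 8.35 CPM in DMSO, 10.5, 17.1 and 11.8 in the DTP group and 13.4, 15.4 and 49.9 in the combination, and was not called. Its level and that over the TGFBI start are given because of the printed sequences, a choice made after the values were seen. The strongest SMAD7 promoter region, chr18:48952259-48952760, measured 15.7, 23.0 and 12.6 CPM in DMSO, 19.4, 66.1 and 16.4 in the DTP group and 26.9, 31.2 and 77.3 in the combination (adjusted p = 0.34 and 0.128 against DMSO). The strongest distal region, chr18:48975365-48975866, 24.7 kb before the start, measured 9.59 ± 2.16, 19.1 ± 21.0 and 24.9 ± 25.5 CPM (SD, n = 3) and was not called.

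SKIL, the SMAD co-repressor gene, had 2 promoter regions and no distal one. At its start, chr3:170357656-170358157 measured 17, 20.4 and 14.7 CPM in DMSO, 17.5, 86.3 and 23.2 in the DTP group and 14.9, 28.4 and 85.4 in the combination. The groups overlapped and no call was made (adjusted p = 0.25 and 0.201 against DMSO). The same 2 libraries were high as at SMAD7, TGFBR1 and TGFBR2. Of 14 regions within 1 kb of a RefSeq start of 7 genes, osimertinib DTP replicate 2 was the highest of its group in 12 and combination replicate 3 in 13, and none of the 14 was called in any comparison. The part of the promoter share of these libraries in these values was not tested.

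TGFBI, the secreted matrix protein, had the most falls. The 36 regions span from 35.2 kb upstream to 33.0 kb downstream of its start. They were divided, after their values had been seen, at 20 kb upstream, so the counts that follow are a description. Of 9 regions over 20 kb upstream, 7 fell in the DTP group and 7 in the combination. In all 9, no treated library reached the lowest DMSO library, an arrangement that 22.7% of annotated regions showed for osimertinib DTP and 21.1% for the combination. Over the whole gene, every treated library was below every DMSO library in 20 of the 36 regions in the DTP group and in 14 in the combination. The 7 intergenic regions within 20 kb upstream and the 20 at the start or in the gene held no call. The annotation assigns the intergenic regions to TGFBI, and which gene they act on was not tested. Without combination replicate 3 all 9 regions over 20 kb upstream and 2 of the 7 within 20 kb were called in osimertinib DTP, and in 5 of those 7 the DMSO and DTP groups did not overlap.

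The region with the lowest p of the TGFBI group in the combination, chr5:136005475-136005976, 23.3 kb upstream, measured 24.4, 26.1 and 24.6 CPM in DMSO, 4.88, 2.64 and 5.74 in the DTP group and 1.30, 2.79 and 5.61 in the combination. Treated libraries lay far below DMSO, and their 2 groups overlapped. H3K27ac fell by 2.49 ± 0.60 in osimertinib DTP (adjusted p = 0.0158, and 0.0872 without DMSO replicate 2) and by 2.98 ± 0.62 in the combination (adjusted p = 0.00477, and at most 0.0303 when any one library was left out). Its 16 input counts were within the range of 2 to 29 over the 147 regions.

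The strongest region over 20 kb upstream, chr5:136006201-136006702, named after its values were seen, measured 50.4, 75.6 and 52.1 CPM in DMSO, 11.8, 16.4 and 15.2 in the DTP group and 14.9, 31.4 and 10.4 in the combination. It fell by 2.03 ± 0.54 in osimertinib DTP (adjusted p = 0.0233, and 0.155 without DMSO replicate 2) and by 1.65 ± 0.53 in the combination (adjusted p = 0.0391, and 0.183 without DMSO replicate 2).

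Farther upstream the levels were lower. At chr5:135996084-135996585, 32.7 kb upstream, levels were 7.44, 6.82 and 6.64 CPM in DMSO, 0.669, 0.835 and 1.51 in the DTP group and 0.801, 1.05 and 2.13 in the combination. The log2 fold change was −2.77 ± 0.61 in osimertinib DTP (adjusted p = 0.0104, and 0.0662 without DMSO replicate 2) and −2.43 ± 0.61 in the combination (adjusted p = 0.0119, and 0.0617 without combination replicate 1). Its neighbour chr5:135996718-135997219 fell by 2.37 ± 0.59 (adjusted p = 0.0175, and 0.109 without DMSO replicate 2) and by 2.71 ± 0.61 (adjusted p = 0.0069, and at most 0.0444 when any one library was left out). The authors' peak lists, called per library, placed a peak over both regions in 3 of 3 DMSO libraries and in 0 of 3 libraries of either treated group. Of the 9 regions over 20 kb upstream, all had a peak in 3 of 3 DMSO libraries. In 4 none of the DTP libraries had one, and in 5 none of the combination libraries. The strongest, chr5:136006201-136006702, kept a peak in 3 of 3 libraries of each group, and chr5:136005475-136005976 in 2 of 3 of each treated group.

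Closer to TGFBI the groups were not told apart by the test. The strongest intergenic region, chr5:136019847-136020348, 8.9 kb upstream, measured 45.7 ± 13.6 CPM in DMSO, 26.7 ± 2.79 in the DTP group and 25.8 ± 21.0 in the combination (SD, n = 3) and was not called (adjusted p = 0.501 and 0.417). Over the start, chr5:136028971-136029472 measured 28.2, 36 and 28.3 CPM in DMSO, 20.6, 59.0 and 16.3 in the DTP group and 25.1, 31.8 and 73.6 in the combination, with a log2 fold change of 0.05 in osimertinib DTP (adjusted p = 0.973). The strongest promoter-class region, chr5:136053228-136053729, at an internal start 24.5 kb into the gene, measured 33.8 ± 6.93, 39.1 ± 9.0 and 54.1 ± 16.9 CPM and was not called.

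**Figure D3:**
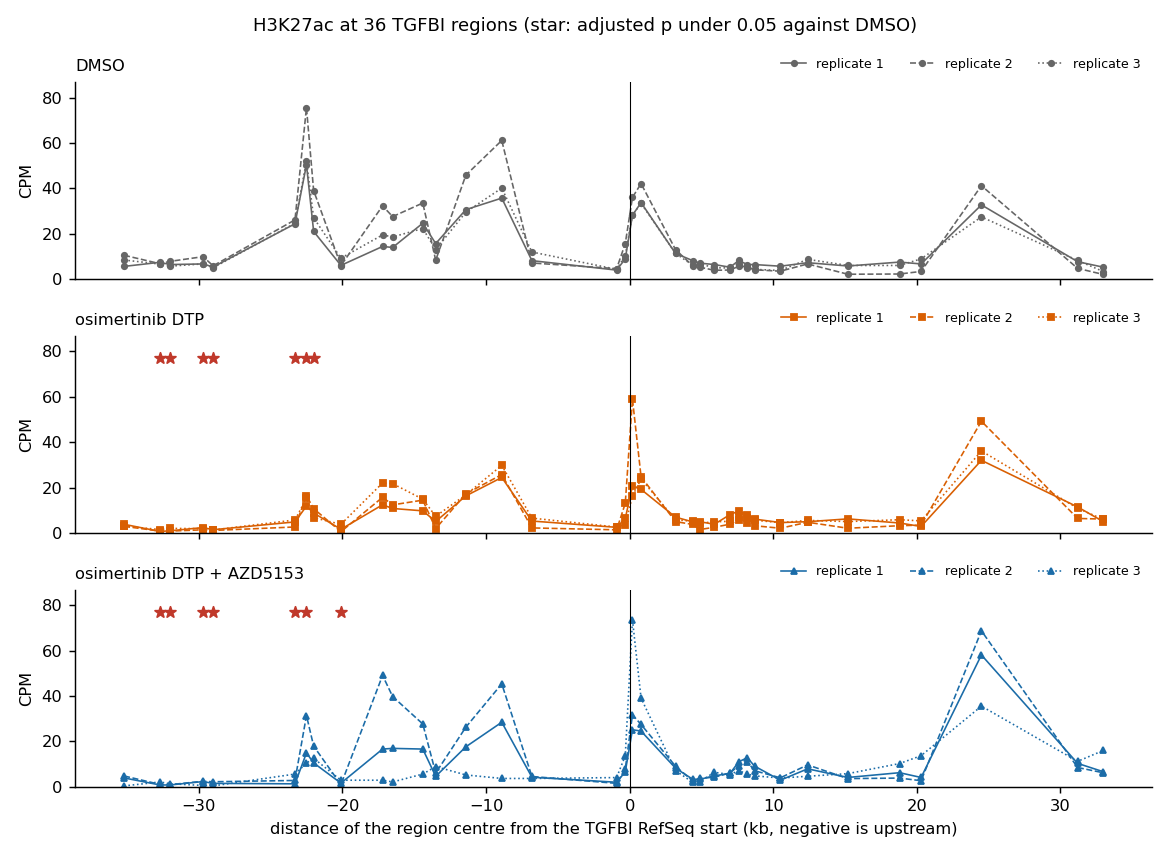
H3K27ac in CPM (y axis) at the 36 TGFBI regions by distance from the RefSeq start in kb (x axis), with 1 line per replicate and 1 panel per group. Stars mark regions called against DMSO, 7 in the DTP group and 7 in the combination, all of them over 20 kb upstream, where the DMSO peak near 22 kb is the tallest of that panel.

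**Figure D4:**
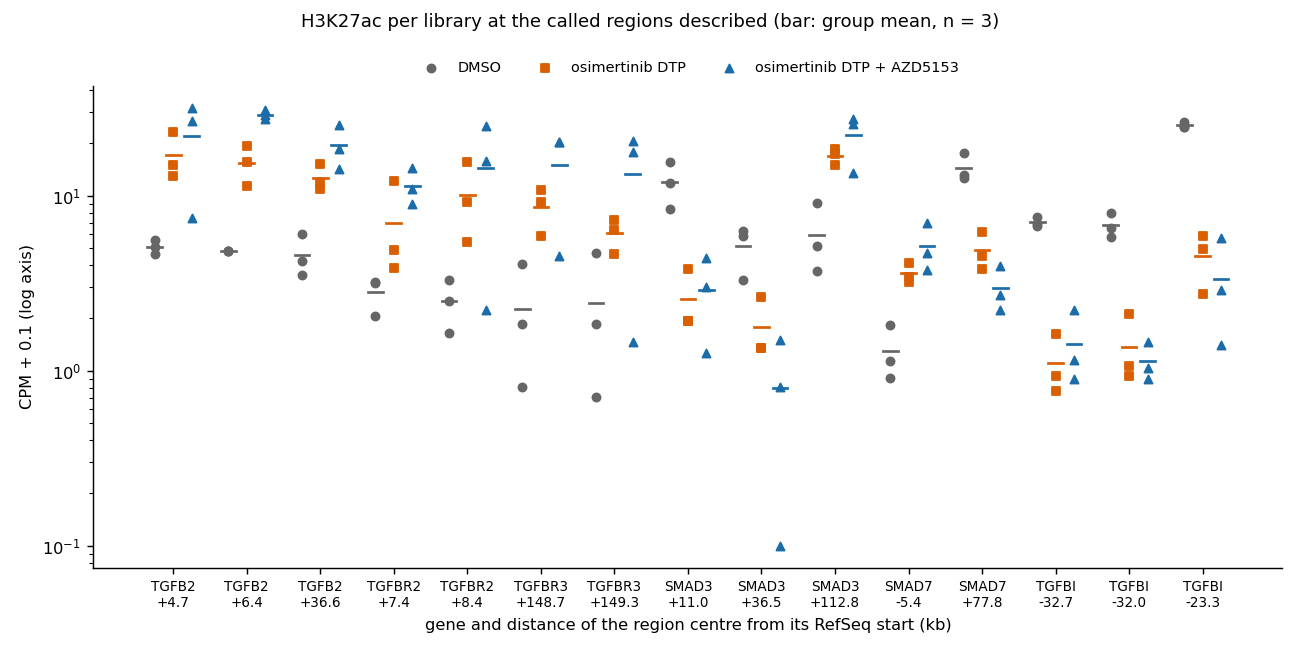
H3K27ac in each library as CPM + 0.1 on a log axis (y axis) at the called regions described, each labelled by gene and distance from the RefSeq start in kb (x axis). Points are libraries and bars group means (n = 3), and the lowest triangle, at SMAD3, is the combination library with 0 counts.

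No region of the 147 was called between the combination and osimertinib DTP, and the called share was 0.0% of all tested regions as well. The groups differ in the last 3 days, which the combination spent in AZD5153. Since the labels do not say whether osimertinib stayed in the medium, AZD5153 and a withdrawal of osimertinib cannot be told apart here. The count with an unadjusted p under 0.05 was 2 with edgeR and 11 with DESeq2, which also called none (0.0772% of annotated regions). Limma with library quality weights called 4, all higher in the combination, or 2.72% against 4.17% of annotated regions. The 147 regions had a median log2 fold change of 0.37, against 0.06 over every region tested. Without combination replicate 3 it was 0.27, against −0.17 over every region tested and −0.01 over annotated regions. In that fit 22 regions had an unadjusted p under 0.05 and none was called, against 0.135% of annotated regions. Every combination library was above every DTP library in 8 of the 38 SMAD3 regions, 2 of TGFBI and 1 of TGFB2, and below in 1 region each of TGFB2, SMAD7 and TGFBI, arrangements that 3.78% and 5.45% of annotated regions showed. Neighbouring regions of a gene share a locus and are not independent.

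Sums of a gene's regions, which weigh its strongest regions most, were tested in 1 fit over 21039 sums of promoter or distal regions. None of the 14 sums was called in osimertinib DTP against DMSO, against 10.5% of all sums. In the combination against DMSO 1 was called, against 17.5% of all. That was the TGFBR2 promoter sum, at 115, 102 and 105 CPM in DMSO, 131, 132 and 186.5 in the DTP group and 258, 238 and 174 in the combination. All combination libraries were above all DMSO libraries, and the sum rose by 1.06 ± 0.26 (adjusted p = 0.0209), a call that was lost on leaving out any DMSO library or combination replicate 1 or 2, with adjusted p up to 0.0999. The TGFBI distal sum was 521 ± 16 CPM in DMSO, 252 ± 108 in the DTP group and 261 ± 144 in the combination (SD, n = 3) and was not called (−1.05 ± 0.47 in osimertinib DTP, adjusted p = 0.204). No sum was called between the combination and osimertinib DTP, where 0.0% of all sums were.

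**Figure D5:**
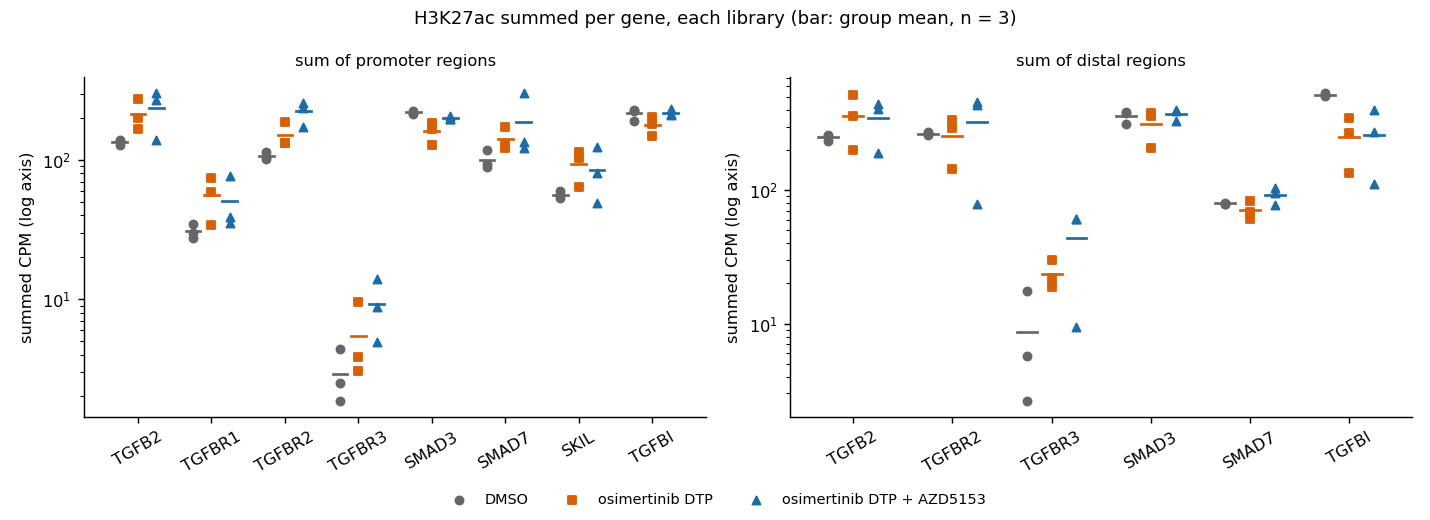
Summed H3K27ac per gene in CPM on a log axis (y axis) for promoter regions (left) and distal regions (right) of each gene (x axis). Points are libraries and bars group means (n = 3). TGFBR2 promoter sums are higher in all 3 combination libraries than in DMSO, while the TGFBI distal sums of the treated groups spread from 111 to 399 CPM below the DMSO values of 511 to 540.

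The other genes of the pathway were taken from 2 lists. Of 30 further ligand, latency, receptor and SMAD regulator genes, 26 had regions, 206 in all, and 11 rose and 7 fell in osimertinib DTP (8.74% called against 14.2% of annotated regions), with 17 and 19 in the combination against DMSO (17.5% against 21.8%). DESeq2 called 14 higher and 16 lower in osimertinib DTP. The median log2 fold change was 0.21 in osimertinib DTP and −0.09 in the combination, against 0.15 and 0.23 over every region tested. An intergenic region assigned to SMAD2, a receptor-regulated SMAD, chr18:47968234-47968735, had counts of 4, 2 and 7 in DMSO, 84, 45 and 69 in the DTP group and 161, 104 and 16 in the combination, a rise of 4.02 ± 0.73 (adjusted p = 0.00461) and of 4.59 ± 0.74 (adjusted p = 0.00153). One inside SMAD4, the shared SMAD partner, chr18:51083143-51083644, had 1, 4 and 1 counts in DMSO against 30, 41 and 57, and 55, 70 and 8 (4.50 ± 0.82, adjusted p = 0.00471, and 4.6 ± 0.82, adjusted p = 0.00227). An intronic region of LDLRAD4, a regulator of SMAD phosphorylation, chr18:13501439-13501940, rose by 4.17 ± 0.82 in osimertinib DTP (adjusted p = 0.00626), and one assigned to SMAD6, a second inhibitory SMAD, chr15:66798427-66798928, rose by 4.14 ± 0.71 in the combination (adjusted p = 0.00188). LTBP2, a latent TGF-beta binding protein gene, held 2 of the falls in the DTP group and 7 in the combination.

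All 20 further target genes had regions, 146 in all. In osimertinib DTP 16 rose and 2 fell (12.3% called against 14.2% of annotated regions), and in the combination 21 rose and 4 fell (17.1% against 21.8%). The median log2 fold changes were 0.67 and 0.69, against 0.15 and 0.23 over every region tested. The share called higher in osimertinib DTP was 11%, against 6.98% of annotated regions. A single gene, NEDD9, held 43 of the 146 regions and 7 of these 16 rises, and neighbouring regions of a gene are not independent. The higher shares of this list therefore rest in large part on that gene. DESeq2 called 26 higher and 8 lower there, 23.3% against 21.8%. Without combination replicate 3 the share called in either direction was 34.9% against 31.5%. For shares in either direction the order of list and background therefore turned with the setting. The share called higher was 17.8% against 9.29% with DESeq2 and 26.7% against 15.7% without combination replicate 3. The share called lower was 5.48% against 12.5% and 8.22% against 15.8%, in the same order. The rises fell on 6 genes in each comparison. At the TAGLN promoter, chr11:117198576-117199077, which serves the smooth muscle actin-binding protein transgelin, counts were 48, 23 and 13 in DMSO, 179, 201 and 165 in the DTP group and 158, 128 and 107 in the combination, a rise of 2.93 ± 0.60 (adjusted p = 0.00721) and of 2.67 ± 0.59 (adjusted p = 0.00635). NEDD9, a scaffold protein gene, held 7 of the rises in the DTP group and 12 in the combination, out of 43 regions. In an intron of COL4A1, a basement membrane collagen gene, chr13:110248108-110248609 had 5, 4 and 5 counts in DMSO, 59, 113 and 67 in the DTP group and 23, 32 and 73 in the combination (4.31 ± 0.79, adjusted p = 0.00474, and 3.81 ± 0.78, adjusted p = 0.00441). Between the combination and osimertinib DTP no region of either list was called with edgeR or DESeq2. Of the pathway list 17 regions had an unadjusted p under 0.05 with edgeR and 21 with DESeq2, and of the target list 6 and 8. Limma with quality weights called 19 regions of the pathway list, 6 higher and 13 lower in the combination (9.22% against 4.17% of annotated regions), and 5 of the target list (3.42%).

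Over both lists, the split in the combination against DMSO was 38 higher and 23 lower with TMM and 28 higher and 30 lower without it. In osimertinib DTP it was 27 and 9 with TMM and 40 and 24 with DESeq2. The calls moved with single libraries here too: leaving out each library in turn left 1 (without DMSO replicate 2) to 102 (without combination replicate 3) calls in the DTP group and 12 to 129 in the combination, and without combination replicate 3 the latter were 65 higher and 64 lower. Without that library 31.5% and 36.3% of annotated regions were called. Such shares without TMM or without the other libraries are not given here, so those counts describe the 2 lists alone.

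Authors' peaks covered 107 to 136 of the 147 regions per library, fewest in combination replicate 3, and 74 regions had a peak in all 9 lists. In 11 regions a peak was present in 3 of 3 DMSO and 0 of 3 osimertinib DTP libraries and in 6 the reverse, and against the combination the counts were 12 and 5. No region had a peak in every library of one treated group and in none of the other. Such counts over all annotated regions are not given here, so these describe the 147 regions alone.

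Across the 9 libraries the gene whose summed H3K27ac was most like that of each member, among 13015 genes with at least 10 CPM, was MIR554 for TGFB2 (Pearson r = 0.989), PFN4 for TGFBR1 (0.988), LINC02243 for TGFBR2 (0.981) and FOXI1 for TGFBR3 (0.992). For SMAD3 it was MCPH1 (0.970), for SMAD7 LINC01089 (0.997), for SKIL WBP2 (0.991) and for TGFBI MILR1 (0.977). These r values describe 9 libraries in 3 groups and are the highest of many, and they share the depth and promoter share of each library.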

How the data were processed

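The authors deposited raw read counts per region for 9 H3K27ac libraries and the pooled input, and a table that assigns part of the regions to genes, both on hg38. They also deposited 1 peak list per library, with fold enrichment as a ratio to background, −log10 p-values and −log10 q-values. The submitters' processing notes name BWA 0.7.17, MACS2 2.2.6, featureCounts 2.0.0 and ChIPseeker 1.29.1. Reads were single-end, 75 nt. If duplicate reads were removed, which was not given in the sources used here, a region could hold at most 1152 reads, and the highest count of a member region was 732.

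The whole count table was fitted with edgeR 4.0.16 in R 4.3.3 (TMM, filterByExpr with a minimum count of 10, robust quasi-likelihood, a mean per group and no block). Of 169637 regions 157919 passed, all 147 member regions among them. Adjusted p-values are Benjamini-Hochberg over all tested regions with a threshold of 0.05, SE is the log2 fold change over the root of F, and CPM is TMM-scaled. The input was not in the fit. The labels give biological replicates without saying how the cultures were separated, so p-values measure the spread between these libraries. Same-numbered osimertinib DTP and DMSO libraries deviated together (r = 0.358, 0.373 and 0.354), so blocked values stand beside results of that comparison where they change a call.

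Named regions are each member's strongest promoter and distal region and its called regions, at most the 3 with the smallest p. From the lists, the 4 called regions with the smallest p per comparison could be named. The members and lists were chosen with earlier results of these data known, and so were the divisions of the TGFBI, TGFB2, TGFBR2 and SMAD3 regions by distance. One marker of another cell type is not reported here by name. Likeness used log2(CPM + 0.1) sums. Motif windows came from RefSeq tables (GRCh38.p14), in which all 9 genes matched by symbol, and the palindrome was added after the values were seen. The fit was tested on simulated data, for osimertinib DTP against DMSO only. Those data held no library that stands apart, so that test does not bear on combination replicate 3. As alternatives the fit was repeated with DESeq2 1.42.0, without TMM factors, with a loess offset, with no filter, on annotated regions alone, on only the 2 groups compared, with a replicate block, with limma 3.58.1 with quality weights, with a saturation correction, at a threshold of 0.01 and without each library in turn.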

Additional observations from a re-analysis of the deposited data

How the results depend on the processing

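The number of called regions depended on the setting, while none of the 21 single results that were called changed direction under any alternative run. Values that were not called and changed sign included 2 small ones: the SMAD3 region chr15:67125817-67126318 went from −0.25 to 0.06 in the combination against DMSO without combination replicate 3, and the region over the TGFBI start, chr5:136028971-136029472, from 0.05 to −0.06 in osimertinib DTP with the replicate block. The median of the 147 regions also changed sign, to −0.06 with DESeq2 in osimertinib DTP against DMSO and to −0.05 without TMM in the combination against DMSO. For the 147 regions, osimertinib DTP against DMSO gave 10 calls, 22 with DESeq2, 34 with only the 2 groups compared, 45 with quality weights, 0 at a threshold of 0.01 and 0 to 37 when each library was left out. The combination against DMSO gave 26 calls, 12 with only the 2 groups, 71 with quality weights, 4 at 0.01 and 3 to 46 when each library was left out. Quality weights called 30.6% of the 147 regions in osimertinib DTP, against 36.2% of annotated regions, and 48.3% in the combination, against 49.3%. Shares of annotated regions are not given for only the 2 groups, the threshold of 0.01 or most libraries left out. Those counts describe the 147 regions alone. The combination against osimertinib DTP gave 0, and 4 with quality weights. For the 2 lists of other genes, osimertinib DTP against DMSO gave 36 calls, 64 with DESeq2, 94 with only the 2 groups, 135 with quality weights, 6 at 0.01 and 1 to 102 when each library was left out. The combination against DMSO gave 61, 105 with DESeq2, 209 with quality weights, 19 at 0.01 and 12 to 129, and the combination against osimertinib DTP 0, 24 with quality weights and 0 to 1. In osimertinib DTP quality weights called 28.2% of the pathway list and 52.7% of the target list, against 36.2% of annotated regions. In the combination against DMSO they called 55.8% and 64.4%, against 49.3%. Of the gene sums, 0 were called in osimertinib DTP against DMSO, 1 with the loess offset, 1 with only the 2 groups, 7 with quality weights and 0 to 1 when each library was left out. In the combination against DMSO 1 was called, 3 with DESeq2, 3 with the loess offset, 0 with the replicate block, 8 with quality weights, 0 at 0.01 and 0 to 3 when each library was left out, and against osimertinib DTP 0, or 1 with quality weights. Shares over all gene sums in these settings are not given here. The cause of the changes in the counts of calls was not tested, beyond the fewer libraries or stricter threshold that some settings use by construction.

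With the replicate block, the 147 regions gave 13 calls in osimertinib DTP against DMSO, 28 in the combination against DMSO and 0 between the treated groups. In the first comparison it added 3 calls, at SMAD7, at TGFBR3 and at the TGFBI region chr5:136008661-136009162 (adjusted p = 0.0354), and changed no other call of the 147 regions. In the combination against DMSO same-numbered libraries correlated at 0.005, 0.534 and 0.337, and against osimertinib DTP at 0.296, −0.049 and −0.305. These values were uneven, and the labels do not say how the cultures were separated. In the combination against DMSO the block ended some calls and added others. The TGFB2 region chr1:218350610-218351111 went from an adjusted p of 0.0264 to 0.0597, and the SMAD3 region chr15:67075145-67075646 from 0.0546 to 0.0378. Of 727 alternative values of the 40 single results, 568 stayed on the same side of the threshold, 98 lost a call and 61 gained one. The scaling moved the median over every region tested, on the log2 scale, from 0.15 with TMM to 0.03 with DESeq2 in osimertinib DTP against DMSO. Each group has 3 libraries, and 1 of those of the combination stood apart.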
